A study of Saccharomyces cerevisiae with 6 samples.

Results

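The genes described here are the ATG genes of budding yeast (Saccharomyces cerevisiae), which encode the machinery of autophagy. The family was chosen with earlier results of these data known. Its members were taken by name alone: every gene on the arrays whose current reference name is ATG followed only by a number. This gave 36 genes of the 5711 measured, each with 1 spot. The reference holds 37 such names, and ATG44 is not analysed here.

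Transcript levels were compared between strains labelled ssy1KO, ssy1T9 and wt. By its name ssy1KO lacks SSY1, and ssy1T9 carries the natural variant of the gene that the series title announces; the design text gives S288C, a laboratory strain, as the background of all of them. SSY1 encodes the sensor in the plasma membrane that detects amino acids outside the cell and switches on genes for their uptake. The sources used here do not give the medium, the growth stage or how the mutants were made, nor do they say whether arrays came from separate cultures. There were 6 arrays, 2 for each strain pair with opposite dyes, called KO/wt, T9/wt and T9/KO after the pair. Array 1 of a mutant with wt has wt in Cy5, and array 1 of T9/KO has ssy1T9 in Cy5. All values below are log2 ratios after each array was centred on the median of its genes, so 0 is the typical gene and 1 is a 2-fold difference. The log base is assumed to be 2. The direction of the ratio is likely rather than stated: it was taken from SSY1 itself, which has to be lower in its knockout. With Cy5 over Cy3 throughout, SSY1 in ssy1KO read -1.65 and -1.10 relative to wt. Relative to ssy1T9 it read -1.86 and -1.87. A single direction thus put SSY1 lower in ssy1KO on all 4 arrays, but the same readings cannot also serve as a check of the strain labels, and where the SSY1 probe lies relative to the deletion is not known here. In ssy1T9 the SSY1 transcript was present, at 0.36 over wt (SE 0.09, adjusted p = 0.00302).

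In autophagy a double membrane grows around a portion of cytoplasm, closes into an autophagosome and fuses with the vacuole, where the content is broken down and its amino acids are returned to the cell. Yeast uses it to survive nitrogen starvation. The TORC1 kinase holds it down while nitrogen is plentiful, by phosphorylating Atg13. The same proteins also run selective routes, among them the cytoplasm-to-vacuole targeting (Cvt) pathway, which delivers the aminopeptidase Ape1 to the vacuole in growing cells. Transcription of ATG genes is known to respond to nitrogen supply through GATA factors and repressors such as Ume6 and Rph1.

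About 2 in 5 ATG transcripts were higher in each mutant than in wt. In ssy1KO 14 of 36 ATG genes rose (38.9%, against 13.8% of all genes called higher and 24.3% called in either direction) and 0 fell, with the largest change in ATG41 (2.12-fold higher), followed by ATG8 (1.55-fold) and ATG42 (1.51-fold). In ssy1T9 13 rose and 1 fell (38.9% in all, against 14.1% of all genes called higher, 12.1% called lower and 26.2% in either direction), led by ATG41 (1.91-fold), ATG42 (1.52-fold) and ATG19 (1.46-fold). The 13 that rose in ssy1T9 were all among the 14 of ssy1KO, where ATG38 was the additional one; both comparisons are against the wt strain and come from the same fit over the same arrays. ATG41 in ssy1KO was the 1 change among them that reached 2-fold. Because RNA came from whole cultures, a change in every cell and a larger change in some cells cannot be told apart.

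A gene is called here when its adjusted p was under 0.05 in a two-sided limma fit over all 6 arrays (Benjamini-Hochberg over all genes). The median ATG gene lay at 0.13 in ssy1KO and at 0.15 in ssy1T9, where the median over all genes was 0.00 in both. Single arrays showed the same lean: 24 and 25 of the 36 ATG genes were above 0 on KO/wt arrays 1 and 2, and 25 and 29 on T9/wt arrays 1 and 2, with 49.1% to 49.9% of all genes above 0 on those 4 arrays. On both arrays of the pair with wt, 22 of the 36 ATG genes had 1 sign in each mutant. This is 61.1%, against 56.5% of all genes in ssy1KO and 59.6% in ssy1T9. Among the calls these were 14 of 14 in ssy1KO and 13 of 14 in ssy1T9. Those arrays belong to the fit that made the calls, so agreement among the calls is no separate support. Of the 22 genes not called, 8 in ssy1KO and 9 in ssy1T9 had 1 sign.

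Fewer genes were called against wt in most fits with 1 array left out, among the ATG genes and among all genes. In ssy1KO 6 ATG genes were called without KO/wt array 1, 8 without T9/wt array 1 and 9 without T9/KO array 1; of all genes, 626, 999 and 993 were called in those fits, against 1386 with all arrays. ATG1, ATG8, ATG19, ATG33, ATG41 and ATG42 kept their calls in both mutants whichever array was left out, and ATG2 and ATG31 did so in ssy1T9. With the arrays left uncentred, 21 ATG genes were higher in ssy1KO and 25 in ssy1T9, with 0 lower. Of all genes, 34.4% and 35.3% were then called in either direction, and all genes had a median of 0.16 and 0.17. A small rise or fall is therefore a statement against the typical gene.

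**Figure D1:**
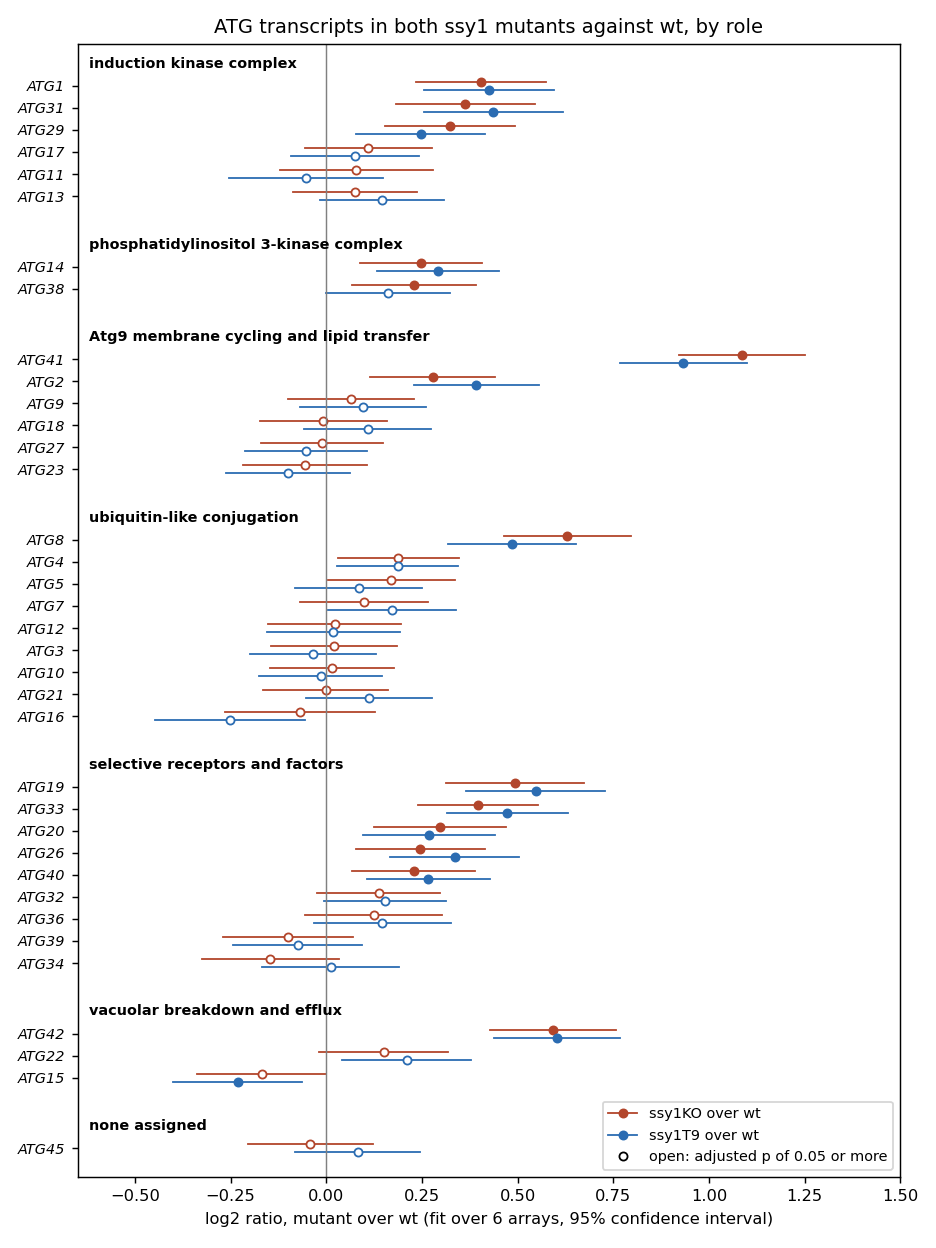
Fitted log2 ratios of the 36 ATG genes in ssy1KO over wt (red) and ssy1T9 over wt (blue), grouped by the role of the protein. Points are the fit over 6 arrays, lines its 95% confidence interval, and filled points passed an adjusted p of 0.05. ATG41 stands furthest right in both mutants at 1.09 and 0.93, and most of the ubiquitin-like conjugation genes other than ATG8 lie near 0.

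Of the 6 genes for the kinase complex and scaffolds that start autophagosome formation, 3 rose in each mutant and 3 did not pass. This is 50%, against 13.8% of all genes called higher in ssy1KO and 14.1% in ssy1T9. The group's medians were 0.22 in ssy1KO and 0.20 in ssy1T9. ATG1, the protein kinase at the head of the pathway, read 0.14 and 0.70 in ssy1KO over wt and 0.32 and 0.50 in ssy1T9 over wt. All 4 readings were above 0, but the KO/wt arrays differed from each other more than the T9/wt arrays. The fit put ATG1 at 0.41 in ssy1KO (SE 0.08, adjusted p = 0.000714) and at 0.42 in ssy1T9 (SE 0.08, adjusted p = 0.00039). ATG31 (adjusted p = 0.00377 and 0.000607), encoding a subunit of the Atg17 scaffold complex, read 0.32 and 0.62 in ssy1KO and 0.43 and 0.23 in ssy1T9, for fitted values of 0.36 and 0.44. ATG29 (adjusted p = 0.0051 and 0.028), encoding the other small subunit of that complex, read 0.18 and 0.58 in ssy1KO and 0.19 and 0.19 in ssy1T9, for fitted values of 0.32 and 0.25. The scaffold gene ATG17 itself lay at 0.11 and 0.07 (adjusted p = 0.347 and 0.546). The gene of the TORC1 substrate Atg13 lay at 0.08 and 0.14 (adjusted p = 0.522 and 0.189).

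ATG11, which encodes the scaffold of selective autophagy, lay at 0.08 in ssy1KO and -0.05 in ssy1T9 and had the widest error of the family (SE 0.10). Its readings in ssy1T9 were 0.49 on array 1 and -0.26 on array 2, so the sign changed with the dye. In ssy1KO the calls of ATG31 and ATG29 were lost without KO/wt array 1 or 2, with values between 0.19 and 0.40 for ATG31 (adjusted p up to 0.156) and between 0.20 and 0.37 for ATG29 (adjusted p up to 0.121). In ssy1T9 the call of ATG29 held without T9/wt array 2 and was lost with any other array left out (0.19 to 0.27, adjusted p up to 0.194).

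The measured ATG genes ATG14 and ATG38 act with the lipid kinase Vps34, which marks the growing membrane with phosphatidylinositol 3-phosphate. ATG14, whose product directs the kinase to autophagy, was higher in both mutants, at 0.25 for ssy1KO and 0.29 for ssy1T9 (SE 0.08, adjusted p = 0.0204 and 0.0066). Its readings were 0.30 and 0.15 in ssy1KO and 0.29 and 0.34 in ssy1T9. ATG38, encoding a further subunit of that complex, rose to 0.23 in ssy1KO (SE 0.08, adjusted p = 0.0348) and lay at 0.16 in ssy1T9 (adjusted p = 0.137). The difference of ATG38 between the mutants was 0.07 and did not pass (adjusted p = 0.98). In ssy1KO the ATG14 call was lost without KO/wt array 1, T9/wt array 1 or 2 or T9/KO array 1 (0.22 to 0.26, adjusted p up to 0.167), and the ATG38 call held only without T9/KO array 2 (0.19 to 0.26 elsewhere, adjusted p up to 0.199). In ssy1T9 the ATG14 call was lost without T9/wt array 1 or 2 (0.24 to 0.32, adjusted p up to 0.119).

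ATG41 carried the strongest response of the family. Atg41 binds Atg9, the transmembrane protein whose vesicles seed the autophagosome, and is needed for full autophagosome formation. The gene read 1.19 and 1.13 in ssy1KO over wt, and 0.96 and 0.76 in ssy1T9 over wt. These are the highest readings of any ATG gene on 3 of those arrays; on T9/wt array 2 only ATG42, at 0.90, read higher. The fit gave 1.09 in ssy1KO (SE 0.08, adjusted p = 1.02e-10) and 0.93 in ssy1T9 (SE 0.08, adjusted p = 1.73e-09). ATG41 ranked 43 from the top of 5711 genes in ssy1KO and 58 in ssy1T9.

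Of the other 5 genes for Atg9 traffic and lipid transfer, only ATG2 rose. With ATG41, 33.3% of the group was called higher in each mutant, against 13.8% (ssy1KO) and 14.1% (ssy1T9) of all genes. Atg2 moves lipids into the growing membrane from the endoplasmic reticulum. ATG2 read 0.27 and 0.14 in ssy1KO and 0.48 and 0.45 in ssy1T9, for fitted values of 0.28 and 0.39 (SE 0.08, adjusted p = 0.0115 and 0.000609). In ssy1KO its call was lost without KO/wt array 1, T9/wt array 1 or T9/KO array 1 (0.26 to 0.31, adjusted p up to 0.0854). ATG18, encoding the phosphoinositide-binding partner of Atg2, lay at -0.01 and 0.11. ATG9 itself lay at 0.07 in ssy1KO and 0.10 in ssy1T9, and ATG23 and ATG27, whose products help Atg9 traffic, lay between -0.10 and -0.01 in both mutants. None of these 4 passed.

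Among the 9 genes of ubiquitin-like conjugation, ATG8 alone was called, and the medians were 0.02 in ssy1KO and 0.09 in ssy1T9. The share called was 11.1% in each mutant, near the 13.8% (ssy1KO) and 14.1% (ssy1T9) of all genes called higher. Atg8 is the small ubiquitin-like protein that is attached to phosphatidylethanolamine on the membrane, where it promotes membrane growth and binds cargo receptors; its transcript is a classical marker of autophagy induction. ATG8 read 0.60 and 0.77 in ssy1KO and 0.40 and 0.46 in ssy1T9. All 4 readings agreed in sign and differed little between dye orientations. The fitted values were 0.63 in ssy1KO (SE 0.08, adjusted p = 1.51e-06) and 0.48 in ssy1T9 (SE 0.08, adjusted p = 6.4e-05), or 1.55-fold and 1.40-fold higher than in wt.

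The enzymes that act on Atg8 and Atg12 did not follow it past the threshold. ATG4, encoding the protease that trims Atg8 and later releases it from lipid, came nearest, at 0.19 in both mutants (adjusted p = 0.0782 in ssy1KO and 0.0776 in ssy1T9). ATG7, the activating enzyme shared by both conjugation systems, lay at 0.10 and 0.17, ATG3, which conjugates Atg8, at 0.02 and -0.04, and ATG10, which conjugates Atg12, at 0.02 and -0.02. ATG12 lay at 0.02 in both. Its acceptor gene ATG5 lay at 0.17 in ssy1KO and 0.08 in ssy1T9. ATG21, whose product recruits this machinery to phosphoinositides, lay at 0.00 and 0.11. ATG16, encoding the partner of the Atg12-Atg5 conjugate, was the lowest of the group at -0.07 in ssy1KO and -0.25 in ssy1T9 (adjusted p = 0.641 and 0.0535), and its T9/wt arrays read 0.11 and -0.35.

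The genes for receptors and factors of selective autophagy included 5 of 9 that rose in each mutant (55.6%, against 13.8% of all genes higher in ssy1KO and 14.1% in ssy1T9), with medians of 0.23 in ssy1KO and 0.27 in ssy1T9. ATG19 encodes the receptor that carries Ape1 into the Cvt pathway. It read 0.39 and 0.73 in ssy1KO and 0.60 and 0.36 in ssy1T9. The fit gave 0.49 in ssy1KO and 0.55 in ssy1T9 (SE 0.09, adjusted p = 0.000151 and 3.85e-05). ATG34, its neighbour on chromosome XV and paralog, a receptor for alpha-mannosidase, lay at -0.15 and 0.01 (adjusted p = 0.237 and 0.941). How far the probes separate these paralogs was not tested.

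Mitophagy, the removal of mitochondria, was represented by ATG33 and ATG32. ATG33, encoding a mitochondrial protein of that route, read 0.51 and 0.31 in ssy1KO and 0.57 and 0.35 in ssy1T9, for fitted values of 0.40 and 0.47 (SE 0.08, adjusted p = 0.000378 and 4.17e-05). ATG32, the gene of the mitochondrial receptor itself, lay at 0.14 and 0.15 and did not pass (adjusted p = 0.216 and 0.156). Its 4 readings lay between 0.11 and 0.24, all above 0.

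Smaller rises were seen for ATG20, ATG26 and ATG40. ATG20 encodes a sorting nexin of selective routes and rose to 0.30 in ssy1KO and 0.27 in ssy1T9 (adjusted p = 0.0108 and 0.0193). ATG26, a sterol glucosyltransferase gene, rose to 0.24 and 0.34 (adjusted p = 0.0298 and 0.00337). ATG40, encoding a receptor for the endoplasmic reticulum, rose to 0.23 and 0.27 (adjusted p = 0.034 and 0.0129). SEs of these genes were 0.08, and all their readings on the arrays with wt were above 0, from 0.05 for ATG26 on KO/wt array 2 to 0.43 for ATG26 on T9/wt array 2. The gene of the nuclear envelope receptor, ATG39, lay at -0.10 and -0.08 and that of the peroxisome receptor, ATG36, at 0.12 and 0.15; neither passed.

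Each of these smaller calls was lost in at least 1 fit with an array left out. In ssy1KO the ATG20 call was lost without KO/wt array 1 or T9/wt array 1 (0.25 to 0.30, adjusted p up to 0.123) and the ATG40 call without KO/wt array 1, T9/wt array 1 or 2 or T9/KO array 1 (0.17 to 0.25, adjusted p up to 0.308). The ATG26 call in ssy1KO held only without KO/wt array 2 (0.18 to 0.27 elsewhere, adjusted p up to 0.33). In ssy1T9 the ATG20 call was lost without KO/wt array 1, T9/wt array 1 or 2 or T9/KO array 1 (0.17 to 0.27, adjusted p up to 0.347), the ATG40 call without KO/wt array 1 or T9/wt array 1 or 2 (0.23 to 0.31, adjusted p up to 0.126) and the ATG26 call without T9/wt array 2 (0.25, adjusted p = 0.0963).

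Within the vacuole, the ATG genes went different ways. ATG42, encoding a serine carboxypeptidase that degrades the delivered content, read 0.47 and 0.68 in ssy1KO and 0.34 and 0.90 in ssy1T9. The fit gave 0.59 in ssy1KO (SE 0.08, adjusted p = 3.3e-06) and 0.60 in ssy1T9 (SE 0.08, adjusted p = 2.5e-06). ATG22, whose product exports amino acids from the vacuole, lay at 0.15 and 0.21 (adjusted p = 0.197 and 0.0611). ATG22 read below 0 on array 1 of both mutants (-0.03 and -0.11) and at 0.47 and 0.39 on array 2, where the mutant was in Cy5. The fitted dye term of ATG22 was 0.20, the highest of the ATG genes, where the median over all genes was 0.005. The cause of this split between the arrays was not tested.

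ATG15, encoding the lipase that opens autophagic bodies, was the 1 ATG gene called lower, at -0.23 in ssy1T9 (SE 0.08, adjusted p = 0.0379). It read -0.34 on T9/wt array 1 and 0.04 on array 2, so its own arrays did not share a sign. Single readings still hold the dye effect, and the fitted dye term of ATG15 was 0.18. In ssy1KO ATG15 lay at -0.17 (adjusted p = 0.143), with readings of -0.50 and 0.00. The call in ssy1T9 was lost without KO/wt array 1 or 2, T9/wt array 1 or T9/KO array 1 (-0.28 to -0.18, adjusted p up to 0.173), and without centring it lay at -0.06 (adjusted p = 0.655). ATG45, to which no role was assigned, lay at -0.04 and 0.08 and did not pass.

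**Figure D2:**
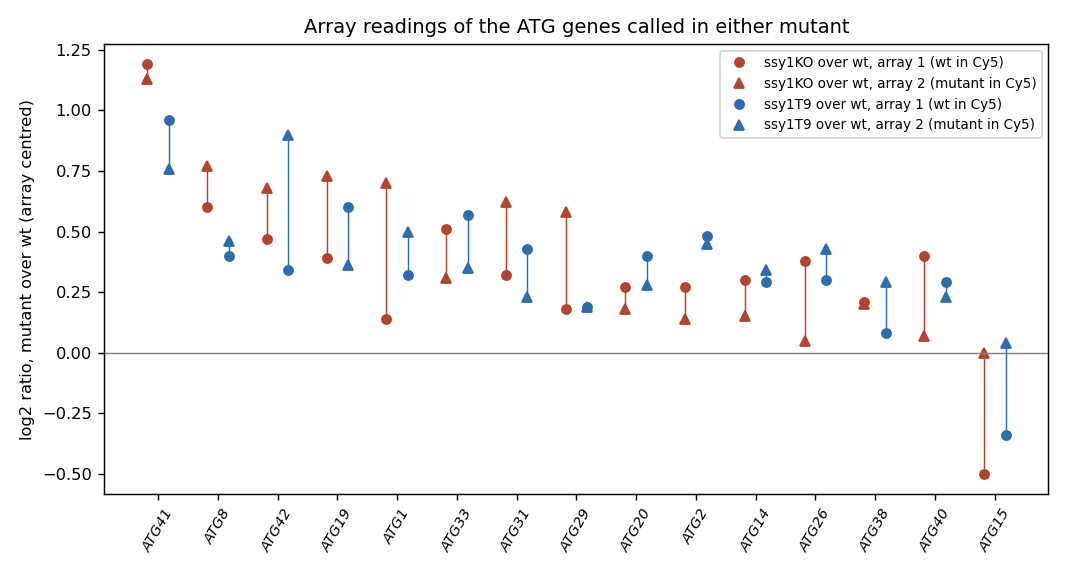
Centred log2 readings, mutant over wt, of the 15 ATG genes called in either mutant, ordered by the fitted value in ssy1KO; red is ssy1KO, blue is ssy1T9, circles are arrays with wt in Cy5 and triangles arrays with the mutant in Cy5. Readings of ATG41 lie between 0.76 and 1.19, and those of the other 13 that rose lie above 0 on every array, while ATG15 reaches 0.04 on T9/wt array 2.

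Between the mutants no ATG gene was called. By limma 0 of 36 differed in ssy1KO against ssy1T9, and 0 had an unadjusted p under 0.05, where 0.298% of all genes (17 of 5711) were called. Fitted differences ran from -0.16 for ATG34 to 0.18 for ATG16 (adjusted p = 0.936 and 0.931), with a median of -0.02 and a median over all genes of 0.00. ATG41 and ATG8, the top genes in ssy1KO, lay 0.15 and 0.14 higher in ssy1KO than in ssy1T9, with 95% confidence intervals of -0.01 to 0.32 and -0.02 to 0.31. On the T9/KO arrays themselves ATG41 read 0.08 and 0.08 and ATG8 read 0.18 and 0.00.

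These intervals bound the differences without showing that the alleles act alike. The widest reached 0.38, for ATG16, so a difference of up to 1.30-fold is within the intervals of the family. ATG16 read 0.19 and 0.44 when ssy1KO was set directly on ssy1T9, both above 0, yet the arrays of each mutant with wt put the same difference at -0.08. ATG11 showed the same discord, with 0.38 and 0.22 on the T9/KO arrays and -0.20 through wt. Of the 36 genes 19 had 1 sign on both T9/KO arrays (52.8%, against 49.9% of all genes).

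**Figure D3:**
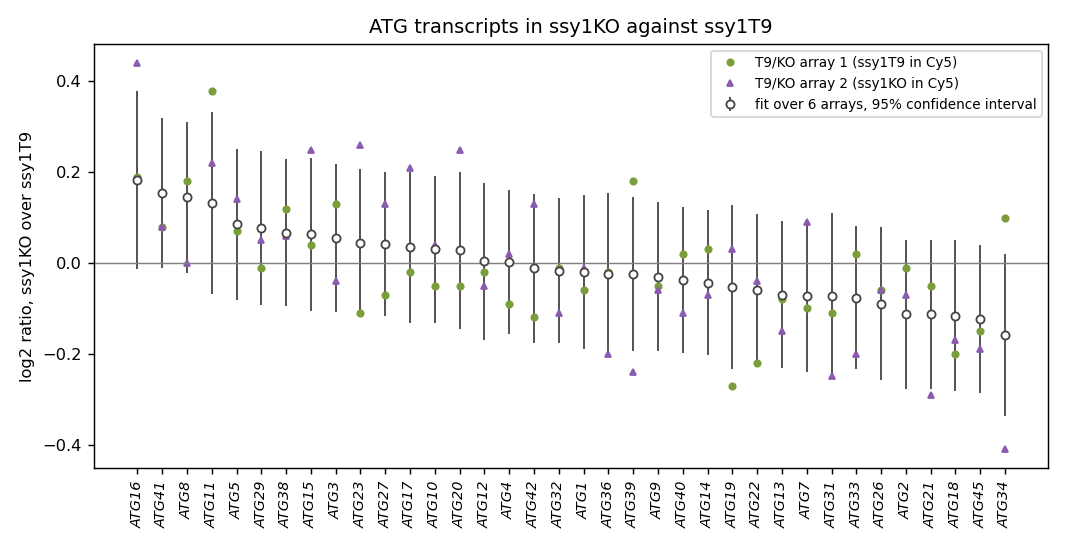
Log2 ratios of the 36 ATG genes in ssy1KO over ssy1T9, ordered by fitted value. Open circles with lines are the fit over 6 arrays with its 95% confidence interval, and the small marks are the readings of the T9/KO arrays. The fitted values lie between -0.16 and 0.18, every interval includes 0, and 0 genes passed.

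Genes that work with the ATG proteins under other names were described from 8 lists taken from general knowledge of the pathway. The lists were chosen with earlier results of these data known. The largest values among them were in the regulators of ATG transcription and in the cargo of the Cvt route. Of 14 regulators, 6 rose in ssy1KO and 7 in ssy1T9, with 0 lower and medians of 0.19 and 0.21. These are shares of 42.9% and 50%, where 13.8% and 14.1% of all genes were higher. Without T9/wt array 1 the count in ssy1T9 was 4. GAT1, a GATA activator of nitrogen genes, rose to 2.22 in ssy1KO and 2.24 in ssy1T9, and DAL80, a GATA repressor, to 2.20 and 2.10 (SE 0.08 for GAT1 and 0.09 for DAL80). GLN3, the other GATA activator, rose to 0.50 and 0.49 (SE 0.08, adjusted p = 2.33e-05 and 2.57e-05). The transcripts of the ATG repressors UME6 and RPH1 did not pass, at -0.05 and 0.20 in ssy1KO and -0.04 and 0.16 in ssy1T9. Other regulators of the list did pass in both mutants, among them PHO23 (0.22 and 0.27, adjusted p = 0.0444 and 0.0137) and GZF3 (0.32 and 0.35, adjusted p = 0.0039 and 0.00165). The PHO23 call in ssy1KO held only without T9/wt array 2 (0.17 to 0.31 elsewhere). All these values are transcript levels, not activities of the factors.

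Of 4 cargo genes of the Cvt route 2 rose in each mutant and 0 fell (50%, against 13.8% of all genes higher in ssy1KO and 14.1% in ssy1T9), with medians of 0.35 in ssy1KO and 0.38 in ssy1T9. APE1, the gene of the aminopeptidase that Atg19 delivers, read 1.72 and 1.24 in ssy1KO and 1.71 and 0.96 in ssy1T9. Its fitted values were 1.40 in ssy1KO and 1.41 in ssy1T9 (SE 0.08, adjusted p = 9.4e-13 and 8.45e-13), or 2.64-fold and 2.66-fold higher than in wt, more than any ATG gene. AMS1, encoding the alpha-mannosidase cargo, rose to 0.42 and 0.59, and without KO/wt array 2 its value in ssy1KO was 0.26 and did not pass (adjusted p = 0.0551). The cargo genes LAP3 and APE4 did not pass, at 0.28 and -0.07 in ssy1KO and 0.18 and -0.01 in ssy1T9.

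All 4 genes of vacuolar breakdown outside the ATG names rose in both mutants, with medians of 0.39 in ssy1KO and 0.45 in ssy1T9. Of all genes, 13.8% were called higher in ssy1KO and 14.1% in ssy1T9, and this list holds only 4. PRB1, encoding the vacuolar protease B that matures other hydrolases, was at 0.82 in ssy1KO and 0.87 for ssy1T9 (SE 0.09). CPS1, a carboxypeptidase gene, rose to 0.47 and 0.54, and PEP4, encoding the protease A that activates the hydrolases, to 0.30 and 0.36. The PEP4 call in ssy1KO was lost without KO/wt array 1 or 2 (0.22 to 0.26, adjusted p up to 0.206). PRC1, encoding carboxypeptidase Y, rose to 0.24 and 0.26, the smallest change of the list. The PRC1 calls held only without KO/wt array 2 in ssy1KO (0.18 to 0.29 elsewhere) and only without KO/wt array 2 or T9/KO array 2 in ssy1T9 (0.15 to 0.28 elsewhere).

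Of 17 genes of TORC1 and its inputs 2 rose in ssy1KO and 4 in ssy1T9 with 0 lower, a share of 11.8% and 23.5%, where 13.8% and 14.1% of all genes were higher and 24.3% and 26.2% were called in either direction. The list's medians were 0.13 and 0.10. The count was 1 in ssy1KO without KO/wt array 1 or 2, T9/wt array 1 or T9/KO array 1, and in ssy1T9 it was 2 when T9/wt array 1, T9/wt array 2 or T9/KO array 2 was left out. GTR1, encoding a GTPase that signals amino acids to TORC1, had the largest change, at 0.51 and 0.41 (SE 0.08, adjusted p = 4.39e-05 and 0.000468), whereas the kinase gene TOR1 lay at -0.02 and 0.06. Of the 4 genes of the Vps34 kinase, 0 were called in ssy1KO by limma, where 1 had an unadjusted p under 0.05 and 1 was called without T9/wt array 2 or T9/KO array 2; the list's medians were 0.13 in ssy1KO and 0.21 in ssy1T9. In ssy1T9 VPS15 and VPS34 rose to 0.28 and 0.24 (adjusted p = 0.0133 and 0.0328), or 50% of the list. Of all genes, 13.8% were called higher in ssy1KO and 14.1% in ssy1T9, and this list holds only 4. VPS15 read -0.04 and 0.66 on its T9/wt arrays. Both calls were lost without KO/wt array 1 or T9/wt array 2, and that of VPS34 also without T9/KO array 1 or 2 (0.17 to 0.25 for VPS15 and 0.18 to 0.23 for VPS34). VPS30, the current name of the former ATG6, lay at -0.09 and 0.06.

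COG1, encoding a Golgi tethering subunit, was the 1 of 15 vesicle supply genes called in each mutant, at 0.22 in ssy1KO and 0.27 in ssy1T9. The share was 6.67%, where 13.8% (ssy1KO) and 14.1% (ssy1T9) of all genes were called higher, and the list medians were 0.03 and 0.01. The call of COG1 was lost without KO/wt array 1 or 2, T9/wt array 1 or T9/KO array 1 in ssy1KO (0.12 to 0.25) and without T9/wt array 1 in ssy1T9 (0.27, adjusted p = 0.119). Genes for fusion with the vacuole, such as the GTPase gene YPT7 and the tethering complex genes, numbered 15. By limma 0 of them were called in either mutant, against 24.3% of all genes in ssy1KO and 26.2% in ssy1T9. An unadjusted p under 0.05 was seen for 1 of the 15 in each mutant. In ssy1KO 1 was called lower without T9/KO array 2. Uncentred arrays gave 3 higher in ssy1KO and 4 in ssy1T9, where 34.4% and 35.3% of all genes were called in either direction. Values ran from -0.22 to 0.15 in ssy1KO and from -0.15 to 0.19 in ssy1T9, around medians of 0.00 and -0.01. Of 11 partners of selective autophagy 3 rose in each mutant and 0 fell, with medians of 0.13 and 0.11. Their share was 27.3%, where 13.8% of all genes were called higher in ssy1KO and 14.1% in ssy1T9. In either direction 24.3% and 26.2% of all genes were called. The count of partners called was 0 in ssy1KO without KO/wt array 2 and 0 in ssy1T9 without T9/wt array 1, and in ssy1T9 it was 1 without KO/wt array 1 or T9/KO array 2. The partners that rose included the sorting nexin gene SNX41 (0.33 and 0.36) and NVJ1, encoding the tether between nucleus and vacuole (0.40 and 0.25). Without KO/wt array 2 these lay at 0.29 and 0.27 in ssy1KO and did not pass (adjusted p = 0.0523 and 0.0524). In ssy1T9 SNX41 lost its call without T9/wt array 1 (0.28, adjusted p = 0.0925), and NVJ1 lost it without KO/wt array 1 or 2, T9/wt array 1 or T9/KO array 2 (0.18 to 0.29, adjusted p up to 0.178). In ssy1KO against ssy1T9 limma called 0 genes of these 8 lists, and 1 regulator and 2 fusion genes had an unadjusted p under 0.05.

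**Figure D4:**
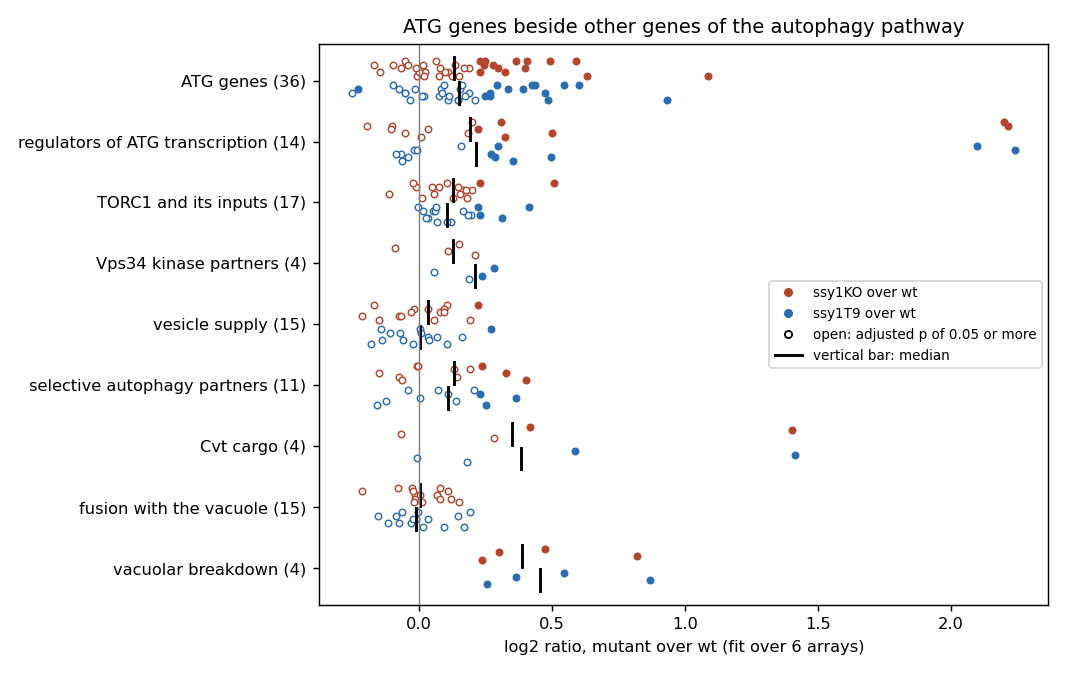
Fitted log2 ratios of the ATG genes and of 8 lists of other autophagy pathway genes in ssy1KO over wt (red) and ssy1T9 over wt (blue), with the number of genes per list in brackets. Filled points passed an adjusted p of 0.05 and vertical bars are medians. GAT1, DAL80 and APE1 lie furthest right, and the fusion genes centre on 0 with no filled point.

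ATG19 and ATG34 were the only ATG genes next to each other in the gene order, and the neighbours of all 36 were read beside them. Of 28 measured next neighbours of the 14 ATG genes that rose in ssy1KO, 6 were higher (21.4%, against 13.8% of all genes) and 3 lower, with a median of 0.04. Of 43 neighbours of the other ATG genes 2 were higher (4.65%), ATG19 itself and PYC2, and 6 lower, with a median of -0.03. Of all genes, 10.5% were called lower in ssy1KO. Neighbours of ATG1, ATG2 and ATG33 were among those higher in ssy1KO: GTS1 at 0.47 beside ATG1, ZWF1 at 0.67 beside ATG2 and ILV5 at 0.53 beside ATG33. The neighbours of ATG41 went different ways. YAH1 was called higher like ATG41, at 0.23 in ssy1KO and 0.27 in ssy1T9 (adjusted p = 0.0493 and 0.0208). RPL36B, a ribosomal protein gene, lay at -0.44 in ssy1KO and -0.74 in ssy1T9, opposite to ATG41. These genes were picked for mention after their values were seen.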

How the data were processed

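The data are 6 dual-colour arrays of total RNA from 3 yeast strains, labelled with the Genisphere 3DNA system, per the labels. The authors' deposited value table gives 1 log ratio per spot and array, taken here as log2. Scanner, background correction, normalization, log base and direction: not given in the sources used here. As they stand, the columns were not centred, with medians from -0.58 to -0.08 over genes. Spot intensities were not used here, so no filter on dim spots was possible; the number of arrays limits the precision (median SE 0.08).

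Rows were named through the platform annotation and updated by gene identifier to R64 names (6111 of 6116 named rows matched); 1628 unnamed rows were left out. Spots of a gene were averaged, giving 5711 genes. Arrays were centred on their median and all 6 fitted together in R 4.3.3 by limma 3.58.1 with eBayes moderation (residual degrees of freedom 3, prior 20.67). The model held a dye term per gene and an effect of each mutant against wt; ssy1KO against ssy1T9 is a contrast of that fit. The fit was also run on data simulated from its own model and spread with independent normal noise. That run could not test for dependence between arrays. The Benjamini-Hochberg adjusted p-values rest on the variation among 6 arrays alone, and that variation may be technical. Arrays were numbered 1 and 2 within a pair in accession order, so numbers pair nothing across groups.

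The ATG genes and the 8 pathway lists were chosen with earlier results of these data known. By the rule for named genes, every ATG gene is grouped by role, with array values for called ones, ATG1 and ATG8; each list is given by counts and median with up to 3 called members by size. Other genes named were added after their values were seen. Promoter sequences were not analysed here.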

Additional observations from a re-analysis of the deposited data

How the results depend on the processing

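Each array holds both strains of its pair, so every ratio already compares strains within an array. No further pairing across strain pairs was possible, because the array numbers only name arrays within a strain pair. Across 16 alternatives (10 settings and 6 fits with 1 array left out), no called ATG gene changed its direction. Of the ATG genes in ssy1KO against wt, 14 were called, 9 with arrays scaled to a common spread, 9 without the dye intercept, 2 from the KO/wt arrays alone (ATG8 and ATG41), 3 against a 1.2-fold change (ATG8, ATG41 and ATG42), 8 at an adjusted p under 0.01, and 6 to 13 with 1 array left out. Calls over all 5711 genes moved too, from 1386 to 883, 740, 161, 265 and 853 in the first 5 of these. In ssy1T9 against wt 14 were called, 25 without centring (2014 of all genes, against 1494), 3 against a 1.2-fold change (ATG19, ATG41 and ATG42) and 10 to 13 with 1 array left out. From the T9/wt arrays alone limma called 0, with 12 at an unadjusted p under 0.05; that fit has 2 arrays and called 68 of all 5711 genes, or 1.19%. In ssy1KO against ssy1T9 0 were called under all 16, with 0 to 5 at an unadjusted p under 0.05. Calls of ATG41 and ATG8 in ssy1KO held under all 16 (0.97 to 1.24 and 0.54 to 0.79). The cause of these dependences was not tested.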
